A study of Mus musculus with 39 samples.

Results

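The mitochondrial respiratory chain passes electrons from NADH and succinate to oxygen, and most subunits of its complexes are encoded in the nucleus. Transcripts of 53 such subunits were measured on 39 Affymetrix arrays of mouse breast tissue, masses, tumours and normal mammary gland, among 18194 genes in all. The subunits were chosen by platform symbol and not by their values, though with earlier results of these data known. Of them 34 belong to complex I, 4 to complex II, 6 to complex III and 9 to complex IV. Each was read from 1 probe set, the one with the highest mean over the arrays, and 34 of the 53 had more than 1 to choose from. Cox7b had no probe set of its own, and Ndufa11 and Ndufs6 had only probe sets shared with another gene, so these 3 were not analysed here.

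Genotypes are written in the labels with the elements SB, Tg, K5Cre and Bcat, which are not spelled out there. Sleeping Beauty, in the title of the series, is a DNA transposon used for insertional mutagenesis. All 4 elements (SB/Tg/K5Cre/Bcat) were present in the quadruple group, whose 19 arrays of breast tissue came from 15 mice. Bcat was missing from the triple K5Cre group (SB/Tg/K5Cre), with 8 arrays from as many mice. K5Cre was missing from the triple Bcat group (SB/Tg/Bcat), with 3 arrays from 2 mice. Bcat +/- animals without the other elements in their label gave 2 arrays of breast masses from 2 animals, and 3 arrays of tumours on the ventral side of 1 mouse. A test of those 3 arrays therefore does not speak about animals. The normal mammary gland arrays came from 4 animals that carried the transgenes too: 2 had the triple K5Cre genotype, 1 the quadruple and 1 the triple Bcat genotype. Animals were read from the identifiers in the sample titles, and neither age nor treatment is given in the labels used. The identifiers of the masses and the ventral tumour mouse begin with C57, those of the other groups and of the glands do not, and the labels name no strain. The 5 groups other than normal gland are called lesion groups here, although the labels of the quadruple and triple arrays say breast. All values are RMA log2 values, so a difference of 1 is a 2-fold difference. They are whole-tissue values, in which fewer cells of a type and less RNA per cell cannot be told apart.

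Complex I oxidises NADH, complex II oxidises succinate and is also an enzyme of the citric acid cycle, and both hand their electrons to ubiquinone. Complex III passes them to cytochrome c, and complex IV passes them on to oxygen; complexes I, III and IV pump protons, which drive ATP synthase. Adipose tissue and skeletal muscle, which lie in and around the mammary gland, also contain these complexes, and muscle and brown fat use their own isoforms of some complex IV subunits. Nuclear respiratory factor 1, ETS-family factors such as GABP, YY1 and the estrogen-related receptors are known regulators of respiratory chain genes.

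Promoter sequences are shown for 5 subunits that were lower in several of the comparisons below and hold a motif of these factors, picked after their values were seen. They come from RefSeq on the GRCm38.p6 assembly and run from 250 bases before to 50 bases after the annotated start of transcription, written in the direction of transcription. A window was matched for 44 of the 53 subunits. Capitals mark the matches, searched on both strands, to the NRF1 motif (GCGCA, any base, then GCGC), the ETS motif CCGGAAG, the YY1 motif AAGATGGC and the estrogen-related receptor motif TCAAGGTCA.
The succinate dehydrogenase windows show the range of matches. Sdha (chr13:74350191-74350490, minus strand) has 3 NRF1 matches:
Sdha: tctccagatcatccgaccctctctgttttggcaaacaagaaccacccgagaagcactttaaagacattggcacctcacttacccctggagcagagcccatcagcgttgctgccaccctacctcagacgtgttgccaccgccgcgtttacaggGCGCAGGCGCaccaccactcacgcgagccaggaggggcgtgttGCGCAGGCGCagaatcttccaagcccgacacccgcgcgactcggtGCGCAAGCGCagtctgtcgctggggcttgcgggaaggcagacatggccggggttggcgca
Sdhb (chr4:140961021-140961320, plus strand) has 1 ETS match:
Sdhb: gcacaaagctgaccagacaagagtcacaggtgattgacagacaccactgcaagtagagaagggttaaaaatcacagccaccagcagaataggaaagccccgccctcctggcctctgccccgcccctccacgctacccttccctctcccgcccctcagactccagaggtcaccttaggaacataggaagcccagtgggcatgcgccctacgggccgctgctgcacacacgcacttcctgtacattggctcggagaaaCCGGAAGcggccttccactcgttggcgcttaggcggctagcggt
Sdhd (chr9:50603800-50604099, minus strand) has an NRF1, an ETS and an estrogen-related receptor match:
Sdhd: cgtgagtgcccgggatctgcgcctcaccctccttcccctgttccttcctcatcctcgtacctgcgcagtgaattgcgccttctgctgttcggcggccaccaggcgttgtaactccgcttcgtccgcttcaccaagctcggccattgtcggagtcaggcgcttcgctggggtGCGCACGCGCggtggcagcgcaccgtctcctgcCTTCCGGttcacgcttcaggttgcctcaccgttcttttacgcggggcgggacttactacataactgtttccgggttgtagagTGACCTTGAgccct
Of the complex I windows, Ndufs3 (chr2:90904672-90904971, minus strand) has 2 ETS matches, 1 on each strand:
Ndufs3: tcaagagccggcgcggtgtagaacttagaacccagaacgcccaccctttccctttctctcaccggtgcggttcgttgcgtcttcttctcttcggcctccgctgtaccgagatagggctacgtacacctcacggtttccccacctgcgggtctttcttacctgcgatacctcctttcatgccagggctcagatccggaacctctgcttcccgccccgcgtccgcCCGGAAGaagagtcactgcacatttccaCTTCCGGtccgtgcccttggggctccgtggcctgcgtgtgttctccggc
Ndufs5 (chr4:123718137-123718436, minus strand) has 1 NRF1 match:
Ndufs5: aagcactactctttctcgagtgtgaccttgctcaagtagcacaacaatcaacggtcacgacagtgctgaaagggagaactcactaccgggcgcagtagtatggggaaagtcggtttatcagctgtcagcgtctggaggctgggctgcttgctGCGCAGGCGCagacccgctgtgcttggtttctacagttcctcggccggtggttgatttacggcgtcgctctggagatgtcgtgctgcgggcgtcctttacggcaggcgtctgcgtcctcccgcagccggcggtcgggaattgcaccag
Over the 44 subunits with a window, 9 (20.5%) held the NRF1 motif, against 5.19% of the 27025 genes with a window of the same length. The ETS motif was held by 10 (22.7%, against 9.93% of genes), the YY1 motif by 6 (13.6%, against 3.19%) and the estrogen-related receptor motif by Sdhd (2.27%, against 0.466%). In all, 23 of the 44 held at least 1 of these motifs. The YY1 windows were those of Ndufa3, Ndufa9, Ndufb8, Ndufc1, Ndufs4 and Ndufs7, all complex I subunits. A match is a string of letters in the window and was not tested as a binding site.

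The arrays had medians between 5.10 and 5.27. Epithelial markers were present in every group, with a mean log2 value of the 10-gene list of 11.10 ± 0.57 (SD, n = 19) in quadruple arrays and 11.12 ± 0.36 (SD, n = 4) in the glands. Markers of skeletal muscle and white fat differed widely: their list means were 10.21 to 11.12 and 11.76 to 12.18 in the 4 glands, while the quadruple medians were 4.56 and 7.13. Xist, a female-specific RNA, was low on quadruple 5 (5.72), triple K5Cre 2 (7.0) and normal gland 3 (5.64), of which the last pair came from animal T627. Quadruple 5 also had the highest 3' to 5' differences of Gapdh (1.18) and Actb (1.70). Ctnnb1, the gene of beta-catenin, averaged 12.87 ± 0.24 (SD, n = 19) in quadruple arrays and 12.67 ± 0.21 (SD, n = 4) in the glands, and Krt5, a basal keratin, 11.65 ± 1.05 and 9.80 ± 0.73.

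Respiratory chain subunits were lower in each of the 5 lesion groups than in normal gland. The mean over the 53 subunits was 11.05, 11.30, 11.40 and 11.15 on glands 1 to 4. It ranged from 10.61 to 11.17 with a median of 10.90 over the quadruple arrays, of which 17 of 19 lay below every gland, and it averaged 10.90 ± 0.08 (SD, n = 8) over the triple K5Cre arrays, all 8 below every gland. The values were 10.63, 10.77 and 10.66 for triple Bcat, 10.76 and 10.75 for the Bcat +/- masses and 10.66, 10.59 and 10.69 for the ventral tumours, again all below every gland. Quadruple 2 (11.14) and quadruple 3 (11.17) were the arrays inside the range of the glands.

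Probe sets not used for these values come from the same arrays, so they bear on the choice of probe set and not on the group difference. Sizes could differ between probe sets. For Sdha the quadruple minus gland difference was -0.6 on the one used and -1.14 on another, and for Sdhc -0.48 and -0.2. Of 63 further probe sets of the same subunits 52 had the same sign of the quadruple minus gland difference as the one used, and of the 42 among them with a mean of 8 or more all 42 did.

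**Figure D1:**
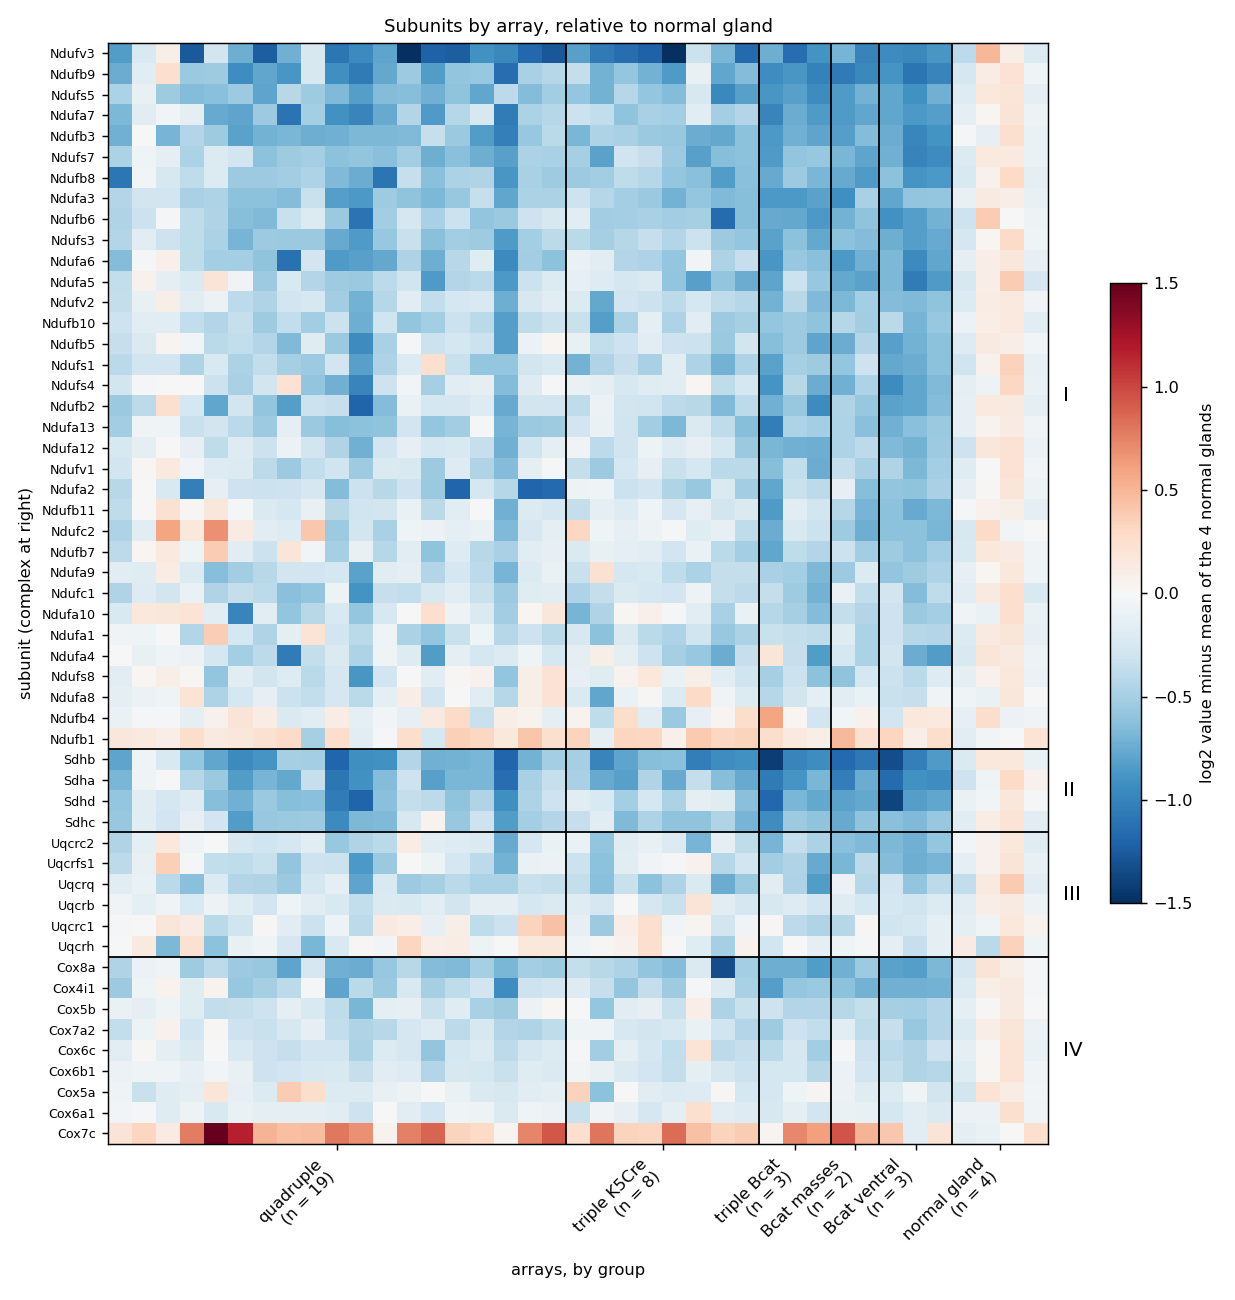
Log2 value of each of the 53 subunits (rows, by complex) on each of the 39 arrays (columns, by group) minus its mean over the 4 normal glands; blue is lower and red higher than normal gland, and values beyond 1.5 take the end colours. Most rows of complexes I and II are blue in the lesion groups, Cox7c is red on most lesion arrays, and the glands themselves vary, with gland 3 the highest over all subunits (mean 11.40).

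Tested one gene at a time (limma, with the animal as a random block and Benjamini-Hochberg adjustment over all 18194 genes, called at an adjusted p under 0.05), 29 of the 53 subunits were called lower and 1 higher in quadruple arrays than in normal gland. Among all genes, 9.66% were called lower and 5.7% higher in that comparison. The median difference of the subunits was -0.31, beside 0.01 over all genes. Without normal gland 3 the count of calls was 13, without gland 2 it was 14, and without the 3 arrays lowest in Xist it was 14.

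In triple K5Cre arrays 23 subunits were called lower and 0 higher, beside 9.79% and 7.44% of all genes, with a median difference of -0.31. The count was 13 without gland 3. Triple Bcat arrays had 30 lower and 0 higher, beside 5.38% and 1.74% of all genes, and a median of -0.60. There the count was 7 without triple Bcat 1 and 17 without gland 3. The Bcat +/- masses had 20 lower and 0 higher, beside 4.68% and 2.6%, and a median of -0.51, but 0 and 4 without masses 1 and masses 2, 13 without gland 2 and 10 without gland 3. For the ventral tumours 25 were lower and 0 higher, beside 3.22% and 0.813%, with a median of -0.63; the counts were 14 and 11 without tumour 1 and tumour 2, 11 without gland 2 and 6 without gland 3. With the arrays of each mouse averaged, so that the ventral tumours count as 1 sample, 0 of 53 passed in that comparison. The shares of all genes called in the fits with arrays left out or averaged are not set beside these counts. All groups in a fit share a single estimate of the spread. Leaving out 1 of the masses leaves a single array, which adds nothing to that estimate. These 5 comparisons use the same 4 gland arrays and are given side by side, not as repeats of each other. By the F test of any difference among the 6 groups, 28 of the 53 subunits were called, beside 12.9% of all genes, made up of 21 of complex I, all 4 of complex II, Uqcrc2 of complex III, and Cox8a and Cox4i1 of complex IV; without gland 2 the count was 14 and without gland 3 it was 8.

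Muscle and fat markers moved with these results. Of 15 skeletal muscle markers 13, 13, 13, 12 and 1 were called lower than normal gland in the quadruple, triple K5Cre, triple Bcat, masses and ventral tumour arrays, and of 12 measured white adipocyte markers 10, 10, 9, 9 and 8. Their list means in the lesion groups ran from 4.18 to 10.72 for muscle and from 4.78 to 11.87 for fat. With both list means as covariates the median differences of the subunits were -0.31, -0.31, -0.55, -0.47 and -0.50, while the median standard error rose from 0.12 to 0.18 in quadruple and the counts of calls were 0, 0, 1, 0 and 0. Across all genes that fit called 95 genes in quadruple against gland, in place of 2794.

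Single arrays show the same quantities without a model. Triple K5Cre 7 had as much muscle signal (10.72) as the glands but a lower fat mean (8.61). Its subunit mean of 10.78 lay below every gland. Quadruple 9, with a muscle mean of 10.02 and a fat mean of 11.04, had a subunit mean of 10.92, below every gland. Quadruple 5, with muscle at 10.12 and fat at 8.87, lay below every gland too. Quadruple 2 had fat at the level of the glands (11.87) with muscle at 4.80, and its subunit mean of 11.14 lay among the glands. Quadruple 3, with muscle at 4.39 and fat at 6.46, lay there too, at 11.17. When the 6 lesion arrays with a muscle mean of 9 or more or a fat mean of 11 or more were left out, a choice made after the data were seen, the counts of calls were 30, 24, 28, 21 and 25. Leaving them out widens the gap in these markers to the glands, so these counts say nothing about the part of muscle and fat. The covariate fit cannot separate that part either, since both list means differ widely between the glands and most lesion arrays. The part of muscle and fat was not tested.

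**Figure D2:**
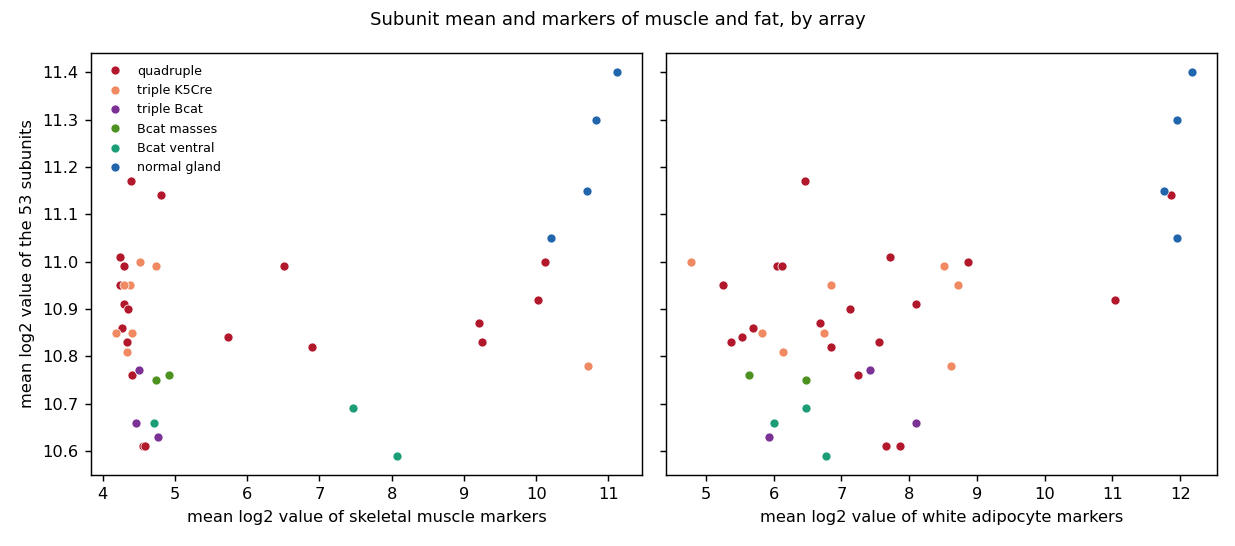
Mean log2 value of the 53 subunits on each array (vertical axis) against the mean log2 value of the skeletal muscle markers (left) and white adipocyte markers (right); colours mark the 6 groups. The 4 glands lie at the upper right of both panels. Triple K5Cre 7 lies at 10.72 for muscle and 8.61 for fat, with a subunit mean of 10.78.

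Complex I, the NADH dehydrogenase, had 18, 16, 21, 14 and 18 of its 34 measured subunits called lower in the quadruple, triple K5Cre, triple Bcat, masses and ventral tumour comparisons, and 0 called higher. The median differences were -0.35, -0.34, -0.63, -0.54 and -0.66. The mean over complex I was 10.99 ± 0.16 (SD, n = 4) in the glands and 10.63 ± 0.16 (SD, n = 19) in quadruple arrays, and 17 of these 19 lay below every gland.

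Ndufv3, an accessory subunit of the NADH-binding part, had the largest difference of complex I in quadruple arrays. Its values were 11.19, 12.07, 11.68 and 11.37 on the glands, and in quadruple arrays they ran from 10.01 to 11.66 with a median of 10.62, so that the groups overlapped although 15 of 19 arrays lay below every gland. Triple K5Cre arrays ran from 10.03 to 11.26 with a median of 10.48. The values were 10.85, 10.43 and 10.68 in triple Bcat, 10.88 and 10.58 in the masses and 10.63, 10.61 and 10.70 in the ventral tumours, all below every gland. The fitted difference was -0.90 ± 0.21 (SE, adjusted p = 0.00264), or 1.86-fold lower, in quadruple and -1.01 ± 0.22 (adjusted p = 0.00104) in triple K5Cre. It was -0.92 ± 0.31, -0.87 ± 0.33 and -0.95 ± 0.34 in the other lesion groups, which did not pass (adjusted p = 0.0633, 0.109 and 0.111).

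Ndufb9 and Ndufb3 are accessory subunits of the membrane arm. Ndufb9 averaged 12.16 ± 0.21 (SD, n = 4) in the glands and 11.53 ± 0.33 (SD, n = 19) in quadruple arrays, a difference of -0.64 ± 0.16 (adjusted p = 0.00393). It was lower by -0.95 ± 0.23 in triple Bcat (adjusted p = 0.00832), by -1.03 ± 0.25 in the masses (adjusted p = 0.00886) and by -1.0 ± 0.25 in the ventral tumours (adjusted p = 0.0204), and in these last groups all arrays lay below every gland. Ndufb3 was tighter: the glands lay at 10.86, 10.76, 11.12 and 10.78, and 18 of 19 quadruple arrays and all 8 triple K5Cre arrays lay below them. Its difference was -0.59 ± 0.10 in quadruple (adjusted p = 8.98e-05) and -0.85 ± 0.17 in the ventral tumours (adjusted p = 0.00276).

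Other accessory subunits followed. Ndufs5 read 10.53, 10.89, 10.91 and 10.58 on the glands and was below them on all 8 triple K5Cre arrays (-0.61 ± 0.11, adjusted p = 9.33e-05) and on all 3 triple Bcat arrays (9.85, 9.91 and 9.78, a difference of -0.87 ± 0.15, adjusted p = 0.000449). Ndufa7 was lower by -0.88 ± 0.20 in triple Bcat (adjusted p = 0.00457) and by -0.83 ± 0.21 in the masses (adjusted p = 0.0138), and Ndufa6 by -0.79 ± 0.22 in the masses (adjusted p = 0.0252).

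The core subunits, among them those that carry the flavin and the iron-sulfur clusters, were set apart here after their values had been seen. In quadruple arrays Ndufs3 (-0.54 ± 0.09, adjusted p = 7.73e-05), Ndufs7 (-0.49 ± 0.11, adjusted p = 0.00147), Ndufs1 (-0.36 ± 0.12, adjusted p = 0.0308) and Ndufv2 (-0.33 ± 0.11, adjusted p = 0.0291) were lower. Ndufv1, the subunit that binds NADH and flavin, differed by -0.28 ± 0.11 (adjusted p = 0.0706) and Ndufs8 by -0.19 ± 0.13 (adjusted p = 0.368), and neither passed there; in triple K5Cre Ndufv1 was lower by -0.36 ± 0.11 (adjusted p = 0.0217). Ndufs7 had its largest difference in the ventral tumours, -0.88 ± 0.18 (adjusted p = 0.00329).

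At the other end of complex I, Ndufb4 was 3.12, 3.51, 3.15 and 3.19 on the glands and 2.91 to 3.53, median 3.21, on quadruple arrays, a difference of -0.01 ± 0.12. Such values lie where signal was not separated from background. Ndufb1, at a mean of 7.05, differed by 0.11 ± 0.12 in quadruple (adjusted p = 0.632) and by 0.15 to 0.33 in triple K5Cre, triple Bcat, the masses and the ventral tumours, none of them called. Ndufa4, counted here by its symbol although the protein is now assigned to complex IV, differed by -0.23 ± 0.16 in quadruple (adjusted p = 0.373).

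**Figure D3:**
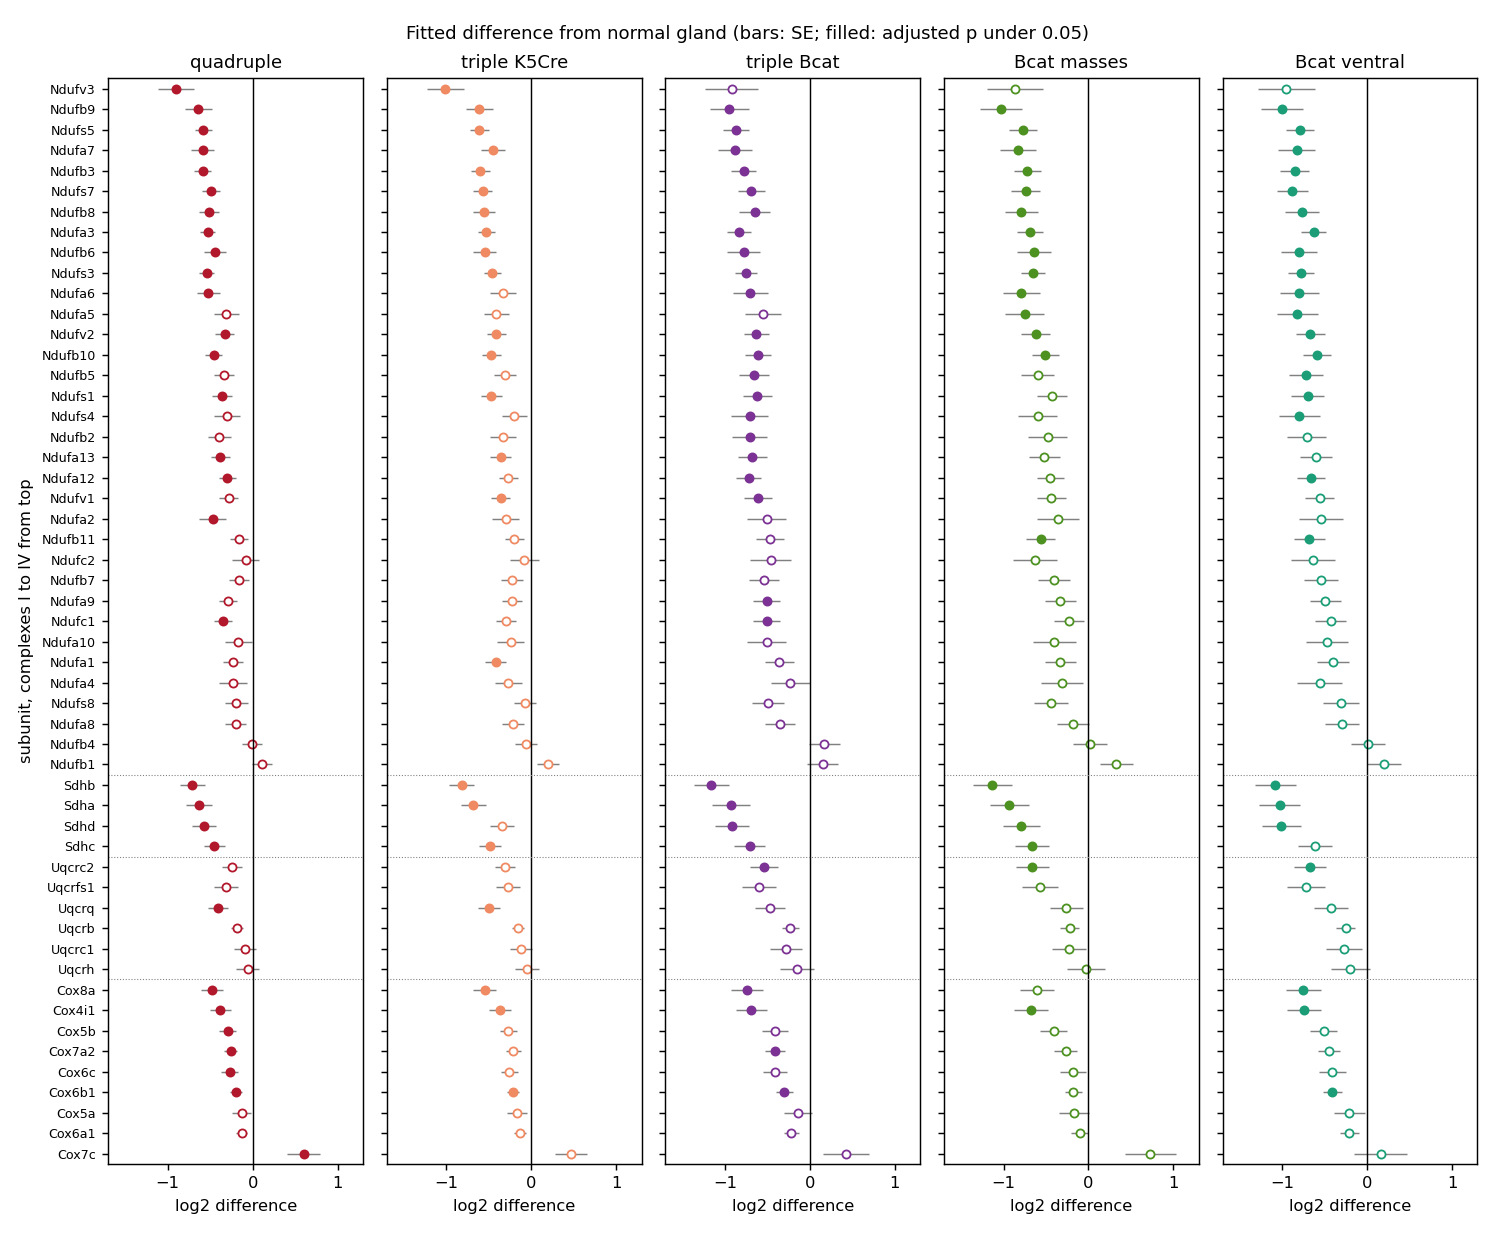
Fitted log2 difference of each subunit from normal gland (points; bars are 1 standard error) in the 5 lesion groups, subunits ordered by complex and then by the mean of the 5 differences; filled points passed an adjusted p under 0.05. Most points lie left of 0, those of complex II between -0.34 and -1.16, and Cox7c lies to the right, filled in the quadruple panel.

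Complex II, succinate dehydrogenase, had the largest median differences of the 4 complexes: -0.60, -0.58, -0.92, -0.86 and -1.02 in the order above. Of its 4 subunits 4, 3, 4, 4 and 3 were called lower. The complex II mean was 10.60, 10.84, 11.01 and 10.75 on the glands and 9.73 to 10.69, median 10.24, on quadruple arrays, of which 17 of 19 lay below every gland. All 8 triple K5Cre arrays, from 10.05 to 10.43, lay below every gland, as did all arrays of triple Bcat, the masses and the ventral tumours.

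Sdhb, the iron-sulfur subunit, was 11.06, 11.43, 11.43 and 11.18 on the glands. Quadruple arrays ran from 10.09 to 11.21, median 10.57, with 18 of 19 below every gland, and triple K5Cre arrays from 10.24 to 10.78. Triple Bcat arrays read 9.86, 10.28 and 10.34, the masses 10.11 and 10.20 and the ventral tumours 9.95, 10.25 and 10.42. Apart from the quadruple group, whose highest array reached into their range, no lesion group overlapped the glands. The differences were -0.71 ± 0.15 in quadruple (adjusted p = 0.000676), -0.82 ± 0.15 in triple K5Cre (adjusted p = 0.000168), -1.16 ± 0.21 in triple Bcat (adjusted p = 0.000784), -1.13 ± 0.23 in the masses (adjusted p = 0.0023) and -1.08 ± 0.24 in the ventral tumours (adjusted p = 0.00648). As folds these are 1.63, 1.77, 2.23, 2.19 and 2.12 lower.

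Sdha, the flavoprotein that oxidises succinate, was 10.74, 10.99, 11.35 and 11.12 on the glands and ran from 9.91 to 11.06, median 10.37, on quadruple arrays, 16 of 19 below every gland. It was lower by -0.63 ± 0.15 in quadruple (adjusted p = 0.00254) and by -0.68 ± 0.15 in triple K5Cre (adjusted p = 0.0016). In triple Bcat and the masses the difference was -0.93, with standard errors of 0.22 and 0.23, and in the ventral tumours it was -1.03 ± 0.24 (adjusted p = 0.0107).

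Sdhd, a membrane anchor of the complex, was 10.69, 10.75, 10.97 and 10.77 on the glands and at most 10.63 on the 19 quadruple arrays, so these groups did not overlap; the difference was -0.57 ± 0.14 (adjusted p = 0.00377). All 8 triple K5Cre arrays lay below the glands as well, up to 10.66, yet the difference of -0.34 ± 0.14 did not pass (adjusted p = 0.0979). Sdhd was lower by -0.92 ± 0.20 in triple Bcat, by -0.79 ± 0.22 in the masses and by -1.01 ± 0.23 in the ventral tumours (adjusted p = 0.00411, 0.021 and 0.00741).

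Sdhc, the other anchor, had the smallest difference of complex II in quadruple arrays. The glands read 9.93, 10.20, 10.30 and 9.93, and quadruple arrays ran from 9.13 to 10.14, median 9.55, 17 of 19 below every gland. The difference was -0.45 ± 0.12 (adjusted p = 0.0112) in quadruple, -0.49 ± 0.13 in triple K5Cre (adjusted p = 0.00702), -0.71 ± 0.18 in triple Bcat (adjusted p = 0.0134) and -0.66 ± 0.20 in the masses (adjusted p = 0.0317). In the ventral tumours, -0.61 ± 0.20 did not pass (adjusted p = 0.0826).

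Complex III, the cytochrome bc1 complex, had 1 of its 6 measured subunits called lower in each comparison, and 0 called higher. Its medians were -0.21, -0.21, -0.37, -0.25 and -0.35. The complex mean overlapped between the glands (11.69 to 12.04) and quadruple arrays (11.33 to 11.78), with 13 of 19 below every gland.

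Uqcrq, a small accessory subunit, was 11.08, 11.59, 11.84 and 11.30 on the glands and 10.66 to 11.35, median 11.05, on quadruple arrays, 11 of 19 below every gland. It was the subunit called in quadruple (-0.41 ± 0.12, adjusted p = 0.0174) and in triple K5Cre (-0.50 ± 0.13, adjusted p = 0.00428). Uqcrc2, a core protein of the matrix side, was the one called in triple Bcat (-0.54 ± 0.17, adjusted p = 0.0487), the masses (-0.66 ± 0.19, adjusted p = 0.0245) and the ventral tumours (-0.67 ± 0.19, adjusted p = 0.0407). Uqcrh, the hinge protein near cytochrome c1, stayed nearest to 0: the glands read 12.09, 11.57, 12.32 and 11.90, quadruple arrays ran from 11.29 to 12.29, median 11.96, and the difference was -0.06 ± 0.14 (adjusted p = 0.842).

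**Figure D4:**
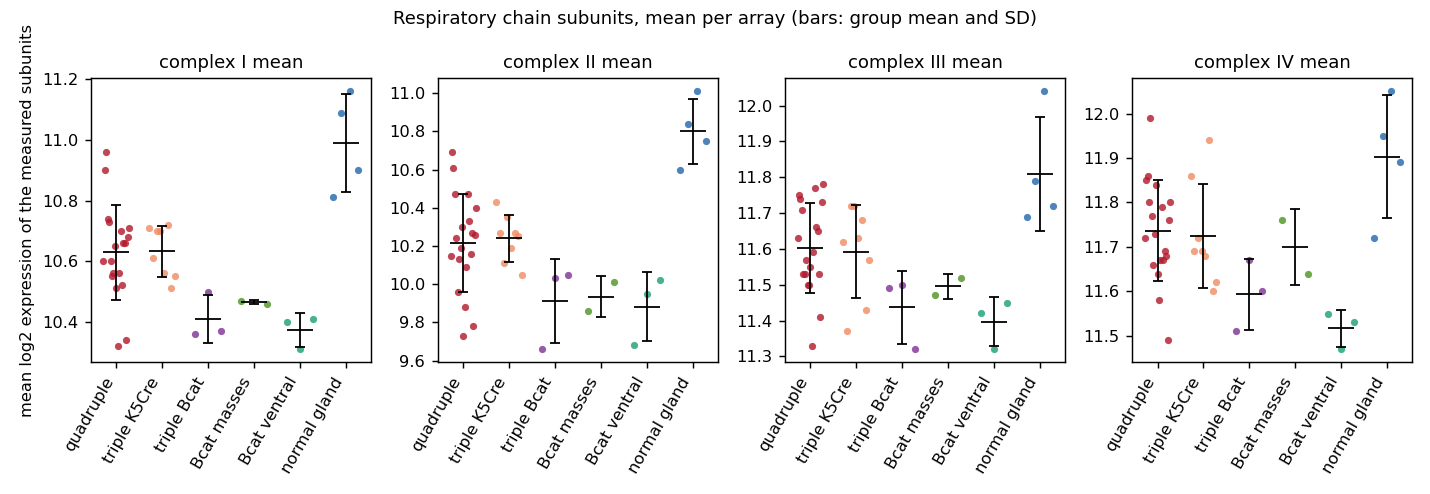
Mean log2 value of the measured subunits of each complex on every array (points) in the 6 groups, with the group mean and SD (horizontal marks and bars); each panel has its own vertical range. The glands lie highest in each panel by mean, and the complex II means of triple K5Cre, triple Bcat, masses and ventral tumours all lie below every gland.

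Complex IV, cytochrome c oxidase, had 6, 3, 4, 1 and 3 of its 9 measured subunits called lower and 1, 0, 0, 0 and 0 called higher. Its medians were -0.26, -0.21, -0.41, -0.18 and -0.41. On the complex IV mean 9 of 19 quadruple arrays and 5 of 8 triple K5Cre arrays lay below every gland.

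Cox8a, the ubiquitous form of its subunit, averaged 11.91 ± 0.19 (SD, n = 4) in the glands and 11.40 ± 0.20 (SD, n = 19) in quadruple arrays and was lower by -0.48 ± 0.13 (adjusted p = 0.00711). The difference was -0.55 ± 0.13 in triple K5Cre (adjusted p = 0.00279), -0.74 ± 0.19 in triple Bcat (adjusted p = 0.0102) and -0.75 ± 0.21 in the ventral tumours (adjusted p = 0.0323), and in the masses -0.61 ± 0.20 did not pass (adjusted p = 0.0532). Cox4i1, which holds regulatory nucleotide sites, was lower by -0.38 ± 0.12 in quadruple (adjusted p = 0.0352), -0.69 ± 0.18 in triple Bcat (adjusted p = 0.0155), -0.68 ± 0.20 in the masses (adjusted p = 0.0281) and -0.74 ± 0.20 in the ventral tumours (adjusted p = 0.0316). In triple K5Cre it was lower by -0.37 ± 0.13 (adjusted p = 0.0437). Smaller differences passed for Cox5b in quadruple (-0.29 ± 0.10, adjusted p = 0.045), for Cox7a2 in triple Bcat (-0.41 ± 0.12, adjusted p = 0.0331) and for Cox6b1 in the ventral tumours (-0.41 ± 0.11, adjusted p = 0.024).

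Cox6a1 was nearest to 0 in quadruple arrays. It read 13.64, 13.64, 13.97 and 13.68 on the glands and 13.42 to 13.74, median 13.59, on quadruple arrays, a difference of -0.13 ± 0.06 (adjusted p = 0.187). Cox7c went the other way. The glands read 6.01, 6.05, 6.15 and 6.40, and quadruple arrays ran from 6.19 to 7.75, median 6.66, 15 of 19 above every gland. The difference of 0.60 ± 0.19 was called higher (adjusted p = 0.0247). It was 0.47 ± 0.19, 0.43 ± 0.27, 0.73 ± 0.30 and 0.16 ± 0.31 in the other lesion groups, none called. The probe set had a mean of 6.61, low on the scale of these arrays, and no detection call was used here.

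Muscle isoforms of complex IV subunits were much lower in most lesion groups. Cox6a2 averaged 9.52 ± 0.81 (SD, n = 4) in the glands and 6.05 ± 1.3 (SD, n = 19) in quadruple arrays, a difference of -3.64 ± 0.64 (adjusted p = 0.000112). Cox8b, at 9.26 ± 1.03 in the glands, was lower by -3.48 ± 0.81 (adjusted p = 0.00247), and Cox7a1, at 8.20 ± 0.68, by -2.55 ± 0.61 (adjusted p = 0.00314). All 3 were also called lower in triple K5Cre, triple Bcat and the masses, and of them Cox7a1 was called in the ventral tumours (-3.93 ± 0.99, adjusted p = 0.0201). That last call was lost without tumour 1 (-3.74, adjusted p = 0.0528) and without gland 3 (-3.9, adjusted p = 0.0611). Cox6a2 was highest among the triple K5Cre arrays at 9.36, within the glands' range of 8.41 to 10.27. Cox8b and Cox7a1 are also expressed in brown fat. Ucp1, the defining gene of brown fat, averaged 3.48 ± 0.15 in the glands, and in quadruple arrays it had a median of 3.61 and reached 6.93 on quadruple 2. That array read 9.78 for Cox8b and 7.44 for Cox7a1, within the ranges of the glands, at a muscle mean of 4.80, and it is one of the arrays whose subunit mean lay among the glands. The other such array, quadruple 3, read 9.75 for Cox8b and 7.86 for Cox7a1, with Ucp1 at 3.73. The part of brown fat was not tested. Ndufa4l2, a paralogue of Ndufa4 known as a hypoxia-induced gene, read 9.83, 7.35 and 6.71 on the triple Bcat arrays and 9.24 and 7.99 on the masses, against 6.03, 6.22, 5.61 and 5.50 on the glands. It was higher in triple Bcat (2.25 ± 0.69, adjusted p = 0.0417) and in the masses (2.72 ± 0.75, adjusted p = 0.0207). Without triple Bcat 1, the highest array, the first difference was 1.13 (adjusted p = 0.577). It was not called without any 1 of the 4 glands either (adjusted p from 0.0557 to 0.0931). The second difference was 2.09 without masses 1 and 3.34 without masses 2, each of which leaves a single array. Without gland 3 it was 2.68 (adjusted p = 0.05) and was not called. Cox7a2l, a supercomplex assembly factor, averaged 11.20 ± 0.21 in quadruple arrays and 11.14 ± 0.10 in the glands.

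**Figure D5:**
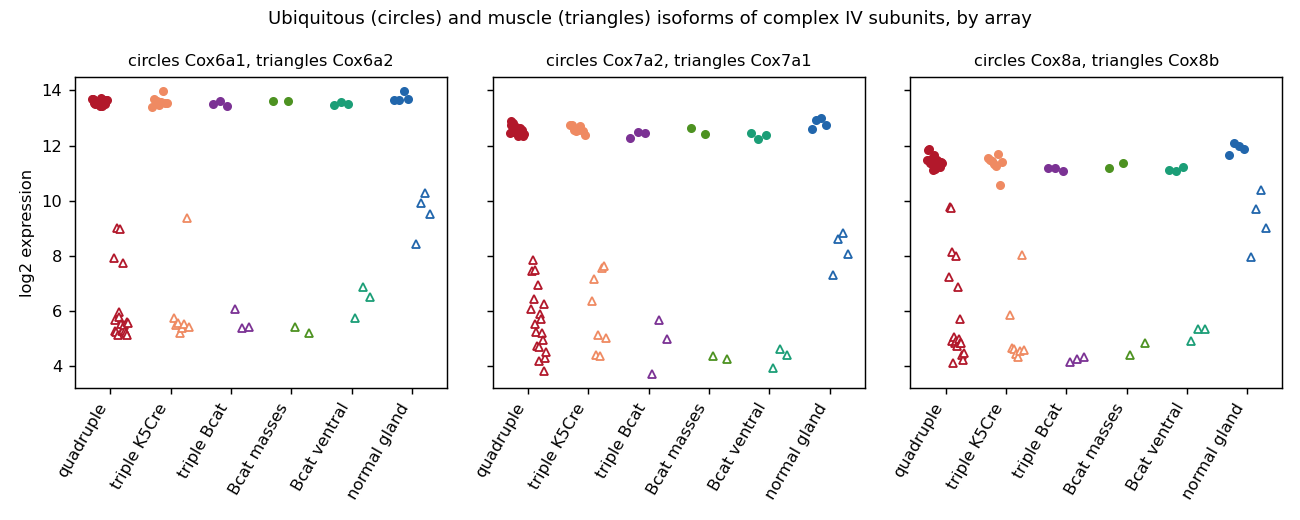
Log2 values on every array, by group, of 3 complex IV subunits (circles, Cox6a1, Cox7a2 and Cox8a) and their muscle isoforms (triangles, Cox6a2, Cox7a1 and Cox8b); different probe sets are not compared in level. The triangles drop from the glands to most lesion arrays, while the circles move by less than 1 between group means.

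The quadruple group was also compared with each of the other lesion groups, and none of the 53 subunits was called in these 4 comparisons. With array weights 7, 1 and 23 subunits were called against triple Bcat, the masses and the ventral tumours. The shares of all genes called with array weights are not set beside these counts, so they are not results about the subunits alone. The other lesion groups were not compared with each other. Quadruple and triple K5Cre arrays had a median subunit difference of 0.01, from -0.22 to 0.18, with 23 of 53 below 0 and a median standard error of 0.10; 0.0% of the 18194 genes passed here, while 811 genes and 1 subunit had an unadjusted p under 0.05. That subunit was Sdhd (-0.22 ± 0.11, adjusted p = 0.995). Against triple Bcat, quadruple arrays had a median of 0.24, with 15 subunits at an unadjusted p under 0.05 and 0.033% of all genes called. Ndufa12 had the smallest p there (0.42 ± 0.13, adjusted p = 0.51). Against the masses the median was 0.14, with 5 such subunits and 0.214% of genes called, led by Ndufb11 (0.40 ± 0.15, adjusted p = 0.424). Against the ventral tumours it was 0.26, with 14 such subunits and 0.143% of genes called, and Ndufb11 differed by 0.52 ± 0.16 (adjusted p = 0.292). Leukocyte markers stood at group means of 10.38 in triple Bcat, 10.13 in the masses and 10.41 in the ventral tumours, against 9.20 ± 1.09 (SD, n = 19) in quadruple arrays, and their part in these differences was not tested.

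Animals T627 and T635 gave both a triple K5Cre breast array and a normal gland array. In T627, 51 of the 53 subunits were lower in the breast array, with a median difference of -0.57, beside 48.7% of all genes and a median of 0.01. In T635, 42 were lower, with a median of -0.18, beside 49.8% of all genes and a median of 0.00. With 2 animals the paired fit called 0 subunits. T627 gave gland 3, the gland with the highest subunit mean, and both its arrays are among the 3 lowest in Xist.

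The subunits also varied together among the 19 quadruple arrays. The median correlation over their 1378 pairs was 0.40, with 1164 pairs above 0, and it was 0.41 within a complex and 0.39 between complexes. A subunit's correlation with the mean of the others had a median of 0.69, beside 0.10 for the other genes with the subunit mean. The median SD of a subunit was 0.23, beside 0.31 over all genes. The subunits are bright, with a median percentile of 97.6 among the mean values of all genes. They were not compared with genes of like signal. The points share arrays and normalization, and some share an animal. Uqcrh (-0.18) and Ndufb4 (-0.16) had the lowest correlations with the mean of the other subunits. That mean correlated at 0.04 with the muscle list mean, 0.20 with the adipocyte, -0.24 with the epithelial, -0.36 with the fibroblast and -0.53 with the leukocyte list mean.

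Other mitochondrial pathways were read from lists in the same fits. The share of all genes called lower was 9.66%, 9.79%, 5.38%, 4.68% and 3.22% in the 5 comparisons, given below in the order quadruple, triple K5Cre, triple Bcat, masses and ventral tumours. Of 15 measured genes of the citric acid cycle and pyruvate dehydrogenase 12, 10, 11, 6 and 9 were lower than normal gland, which is 80.0% in quadruple and 40.0% in the masses, the highest and lowest shares, and 0 were higher. Dld, a shared subunit of the pyruvate and oxoglutarate dehydrogenases, fell by 0.86 ± 0.16 in quadruple arrays (adjusted p = 0.00028), and Pdha1, a subunit of pyruvate dehydrogenase, fell by 1.51 ± 0.32 in the ventral tumours (adjusted p = 0.00469). Of 13 fatty acid oxidation genes 8, 9, 8, 6 and 8 were lower and 0 higher, led in quadruple by Decr1 (-1.5 ± 0.31, adjusted p = 0.00062) and Acadm (-1.24 ± 0.25, adjusted p = 0.000487). Of 10 electron carriers and links to ubiquinone 6, 6, 5, 4 and 4 were lower. Among these Etfb, which carries electrons from fatty acid oxidation, differed by -1.0 ± 0.15 (adjusted p = 1.17e-05) and Sqor, which oxidises sulfide, by -1.92 ± 0.42 (adjusted p = 0.00138) in quadruple arrays.

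ATP synthase and its partners were called lower for 5, 1, 7, 2 and 6 of 18 genes (27.8%, 5.56%, 38.9%, 11.1% and 33.3%), below the share of all genes in triple K5Cre, with medians of -0.19, -0.18, -0.37, -0.36 and -0.43, and Atpif1, its inhibitor, was called higher in quadruple (0.38 ± 0.13, adjusted p = 0.0473) and triple K5Cre (0.53 ± 0.14, adjusted p = 0.00543). With each array of the small groups and glands left out in turn, Atpif1 passed in 4 of 12 fits for quadruple and 11 of 12 for triple K5Cre, with gland 3 the one that ended the latter call (0.46, adjusted p = 0.0527). Of 41 assembly factors 11, 5, 9, 2 and 6 were lower and 0 higher. The shares in triple K5Cre (12.2%) and the masses (4.88%) were near those of all genes. They were led in quadruple by Surf1 (-0.64 ± 0.16, adjusted p = 0.00527), which helps to build complex IV. The mitochondrial ribosome had 3, 2, 6, 2 and 2 of 73 genes lower (4.11%, 2.74%, 8.22%, 2.74% and 2.74%, below the share of all genes except in triple Bcat) and 0, 2, 0, 1 and 0 higher, with medians of -0.03, 0.02, -0.29, -0.19 and -0.34. Of 22 genes of protein import 1, 0, 2, 0 and 1 were lower and 2, 3, 0, 0 and 0 higher. Of 17 glycolysis genes 2, 1, 1, 1 and 1 were lower and 0, 4, 0, 3 and 0 higher. The lower ones include Pfkm, the muscle form of phosphofructokinase (-2.07 ± 0.35 in quadruple, adjusted p = 7.38e-05), and Slc16a3, a lactate exporter, was higher in the masses (2.23 ± 0.63, adjusted p = 0.0245), though not without masses 1 or masses 2 (2.02 and 2.43, adjusted p = 0.246 and 0.124). ND5, the mitochondrially encoded subunit measured here, was lower in triple K5Cre (-0.52 ± 0.14, adjusted p = 0.0091) and in the masses (-1.41 ± 0.22, adjusted p = 0.00019). The triple K5Cre call was lost without gland 2 (-0.43, adjusted p = 0.0595) and without gland 3 (-0.47, adjusted p = 0.065). ND5 was also called higher in quadruple arrays than in the masses, by 1.1.

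Of 17 regulators of mitochondrial biogenesis 1 was lower in each comparison, Perm1, a factor of muscle (-1.17 ± 0.19 in quadruple, adjusted p = 4.75e-05). Nrf1, which encodes the factor whose motif is shown above, was called higher in quadruple (0.39 ± 0.12, adjusted p = 0.0296), in triple K5Cre (0.40 ± 0.13, adjusted p = 0.025) and in the masses (0.63 ± 0.20, adjusted p = 0.0405). Gabpb1, a subunit of the ETS-family factor GABP, was higher in quadruple (0.55 ± 0.14, adjusted p = 0.00499) and triple K5Cre (0.63 ± 0.14, adjusted p = 0.00179). Hif1a, the oxygen-regulated factor, was higher in triple Bcat (1.59 ± 0.49, adjusted p = 0.0439), the masses (2.01 ± 0.53, adjusted p = 0.0161) and the ventral tumours (1.90 ± 0.55, adjusted p = 0.0416). With 1 array left out at a time, Hif1a passed in 5, 10 and 5 of 12 fits in these comparisons, with differences from 1.48 to 2.18, and the highest adjusted p was 0.203, 0.206 and 0.105. Nrf1 passed in 10 of 12 such fits in quadruple and 8 of 12 in the masses. The coactivator Ppargc1a averaged 5.88 ± 1.36 in quadruple arrays and 6.27 ± 0.40 in the glands and was not called (adjusted p = 0.866).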

How the data were processed

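Per the labels' protocols, total RNA from an RNeasy kit was amplified and labelled with 3' IVT Express reagents. The deposited log2 values of 45101 probe sets were made by the authors with RMA, per the submitters' processing notes; its version is not stated there. RMA equalises the distributions of the arrays, so a change shared by most genes would not show. Detection calls were not used here. Precision is limited by the array number of each group. The p-values rest on a single estimate of the spread per gene, shared by all groups, so they do not measure the spread of the compared groups alone.

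Genes were assigned to probe sets with the platform's annotation table: 34958 had 1 gene, 932 several and 9211 none. Each gene took its probe set with the highest mean, without cross-hybridising ones where another existed. All 39 arrays entered 1 limma fit (R 4.3.3, limma 3.58.1, trended eBayes) with a mean per group and the animal as a random block (consensus correlation 0.329), since titles show animals with several arrays. A fitted difference therefore need not equal that of the printed means. Benjamini-Hochberg adjustment ran over 18194 genes in each comparison. On simulated data with 200 genes changed by 1 log2 unit, the fit called 72.5% in quadruple, 70.5% in triple K5Cre, 50.5% in triple Bcat, 44.5% in the masses and 40.5% in the ventral tumours against gland. Among the unchanged genes it called 10, 9, 11, 6 and 3. The fit was given the simulated correlation within animals. The median subunit differences were smaller than 1 log2 unit, so these shares do not describe the subunits. Python 3.11.15, numpy 2.4.6 and pandas 2.3.3 were used.

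Members and lists were chosen with earlier results of these data known. A rule set which members could be named in each comparison: per complex, up to 3 largest called falls and rises, or the 2 smallest p where none passed. Per list it took up to 3 called falls and rises. Values on every array were for the members of each complex with the largest and the smallest absolute difference in quadruple against gland. Not all that the rule covers are named. Between lesion groups only the member with the smallest p is given. In triple K5Cre, Ndufb9 (-0.61, adjusted p = 0.00717) and Cox6b1 (-0.21, adjusted p = 0.0264) were left out above. Other members named were chosen after their values were seen.

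Alternatives covered the animal block, the normalization, low genes, array weights, probe set choice, muscle and fat covariates, arrays low in Xist or Epcam, and each replicate left out in the groups of 2 to 4 arrays.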

Additional observations from a re-analysis of the deposited data

Results flagged for a closer look

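Cox8a on triple K5Cre 7 was 10.58, far below the other 7 arrays of that group, which lay between 11.26 and 11.69. The gap was 0.612 of the group's range, above the limit of 0.526 for 8 arrays. This array had the highest muscle list mean of its group (10.72). Of 60 sets of values checked in this way 1 stood out, where chance gives about 1 in 20.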

How the results depend on the processing

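Counts are subunits called of 53, in the order quadruple, triple K5Cre, triple Bcat, masses and ventral tumours against gland, then any difference among groups. The shares of all genes called in the same settings are not given here, so a changed count is not a result about the subunits alone. Muscle and fat covariates gave 0, 0, 1, 0, 0 and 0, and leaving out the 3 arrays lowest in Xist gave 14, 12, 18, 10, 6 and 8. Cyclic loess gave 39 in triple K5Cre. Array weights gave 37 in triple K5Cre, 36 in the masses, 45 in the ventral tumours and 47 by the F test, and 7, 1 and 23 in quadruple against triple Bcat, masses and ventral tumours, where the main count was 0. The fit without the animal block gave 1 in quadruple against ventral tumours. Animal means gave 0 in the ventral tumours and 18 by the F test, and the paired fit of T627 and T635 gave 0 in triple K5Cre, in both cases from fewer samples. Leaving out each replicate in turn gave 13 to 30, 13 to 25, 7 to 31, 0 to 22, 6 to 25 and 8 to 29, and 0 to 0 in quadruple against triple Bcat, masses and ventral tumours. In quadruple against triple K5Cre, Uqcrq was -0.01 without the arrays high in muscle or fat (0.09 with them; chosen after seeing the data), and Cox7c -0.01 with all probe sets averaged (0.14 otherwise); neither was called. The causes of the other changes were not tested.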
